A study of Oryza sativa with 4 samples.

Results

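The chilling response of the japonica rice cultivar Nipponbare was read from 1 chilled and 1 untreated RNA-seq library, keeping every gene that reached 1 RPKM in either of them. RPKM divides a gene's reads by the length of its model in kilobases and by the size of the library. The genes kept were 20614 of the 55985 genes listed. The series holds 4 libraries in all, from the aerial parts of seedlings 15 days old of Nipponbare and of an indica cultivar, each cultivar untreated or after 33 h at 4 °C ± 1. All seedlings had grown in flooded soil under greenhouse temperatures of 28 °C (day) and 25 °C (night), and nothing in the labels separates the chilled from the untreated seedlings other than the cold. Each library is a pool of seedlings, with no replicate, so no test of chilling was possible within Nipponbare. Differences are described by size, with 95% intervals that cover counting error only. The hour of harvest, the light during chilling and the number of seedlings pooled are not stated in the labels.

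Rice comes from warm regions, and its seedlings are damaged by temperatures that temperate cereals tolerate. Chilling slows enzymes and stiffens membranes while the antenna pigments still absorb light, which puts the photosystems under excess excitation. Known parts of the response are calcium and protein kinase signalling, transcription factors of the DREB, MYB, NAC and WRKY families, and the hormones abscisic acid, jasmonate and ethylene. They also include sugars and hydrophilic proteins that protect cells, and lower expression of genes for photosynthesis and growth. Japonica cultivars such as Nipponbare are generally the more chilling tolerant of the main rice subspecies.

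The libraries totalled 13482486 reads for chilled and 12671333 reads for untreated Nipponbare, as recovered from the values, and 13012799 and 16682882 for chilled and untreated seedlings of the indica cultivar. Reads on genes made up 97.7 to 98.1% of these totals. In Nipponbare, 19196 genes reached 1 RPKM in the untreated library and 17436 in the chilled one. Levels below are RPKM after scaling by trimmed mean of M-values (TMM), and every ratio is chilled over untreated on the log2 scale, with 0.5 reads added to each count. A gene is called higher or lower where its whole counting interval lies beyond 2-fold.

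Chilling was accompanied by a wide spread of ratios over the whole transcriptome of Nipponbare. Of the 20614 genes, 3755 were called higher in the chilled library, a background of 18.2%, and 4040 were called lower, 19.6%. Together these were 37.8% of the genes. For a further 6071 genes, 29.5%, the whole interval lay within 2-fold in either direction. For the other 6748, 32.7%, the reads did not decide on which side of 2-fold the ratio lay. Among the called genes 48.2% were higher. That split depended on the scaling: 37.5% of calls were higher with the values as deposited and 75.9% when the libraries were scaled to 4 reference genes.

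**Figure D1:**
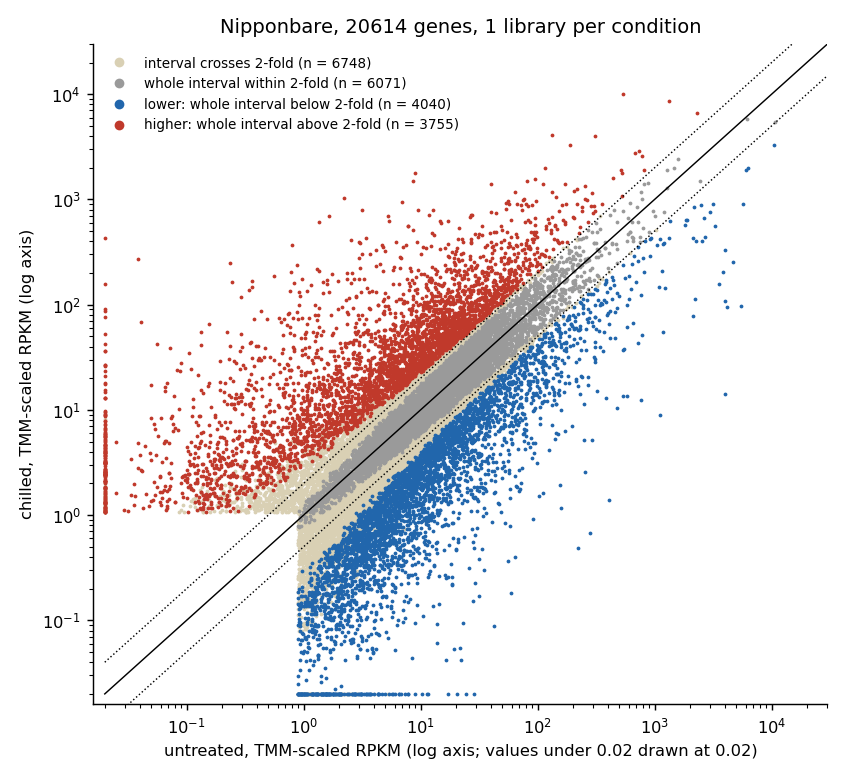
Level of each of the 20614 genes in untreated (x) and chilled (y) Nipponbare, in TMM-scaled RPKM on log axes. The solid line marks equal levels and the dotted lines 2-fold. The red cloud (3755 genes) and the blue cloud (4040 genes) lie on either side of the band of genes within 2-fold, and points on the left and lower edges are genes at or near 0 reads in 1 library.

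The log2 ratios had a standard deviation (SD) of 2.05 over genes and a median of -0.17. Their quartiles were -1.28 and 0.95, an interquartile range of 2.23. The 5th and 95th percentiles were -3.27 and 3.38, and the 1st and 99th were -5.09 and 6.05. The median gene thus differed by 2.19-fold in one direction or the other, and 24.1% of genes lay within 0.5 log2 units of 0. Another scaling shifts all ratios by 1 constant and leaves the SD as it is. The shift was between -0.26 and 0.15 for 4 other scalings and 0.71 for the scaling to reference genes. These reference genes did not behave alike: the glyceraldehyde-3-phosphate dehydrogenase gene GAPC1 (0.05) and the elongation factor gene EF1A (-0.05) had ratios near 0. The actin gene ACT1, at 60.9 RPKM untreated and 23.5 chilled, and GAPC2, at 154 and 52.3, were lower.

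Far out, the tails were unequal. At 2-fold the called genes were nearly balanced, with 0.929 higher genes for each lower one. With the whole interval beyond 8-fold, 779 genes were higher and 465 lower. Beyond 32-fold there were 169 and 48, and beyond 128-fold 27 and 4, or 6.75 higher genes for each lower one. Ratios taken whatever their interval were less unequal: 2479 genes were above 4-fold and 2977 below, and at 8-fold 1311 and 1279. At 128-fold they were 91 and 29. The most extreme ratios thus belonged more often to genes that were higher in the cold, as counted under TMM scaling only. A fold can be followed only down to 0 reads, in the chilled library for lower genes and in the untreated library for higher genes. The part of this bound in the unequal tails was not tested.

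**Figure D2:**
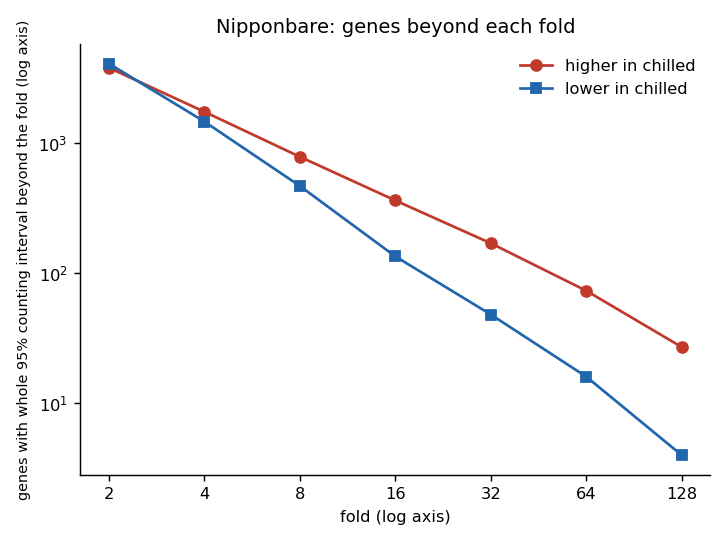
Number of Nipponbare genes (y, log axis) whose whole 95% counting interval lies beyond each fold (x, log axis), for genes higher (red circles) and lower (blue squares) in the chilled library. The lines cross between 2-fold (3755 and 4040 genes) and 4-fold (1725 and 1451) and then part, reaching 27 and 4 genes at 128-fold.

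The spread was not made by low counts alone. Among the 12621 genes whose 2 counts averaged at least 100 reads, the SD was 1.86 and 48.6% of ratios lay beyond 2-fold. By mean level the SD was lowest, at 1.75, in the 3345 genes between 10 and 20 RPKM, where the median counting standard error of a ratio was 0.12. It was 2.35 in the 4179 genes under 2 RPKM, with a counting error of 0.57, and 2.85 in the 126 genes at 500 RPKM and over, with a counting error of 0.02. The 448 genes with 0 reads in 1 library add to it as well: over the 20166 genes read in both, the SD was 1.91. The centre moved with level too. The median ratio was -0.94 under 2 RPKM, 0.07 between 10 and 20 RPKM, 0.69 between 100 and 500 RPKM and -0.08 above. In the class from 100 to 500 RPKM 41.6% of genes were called higher and 17.8% lower, while under 2 RPKM 10.3% were called higher and 23.6% lower. No scaling by 1 factor per library can remove such a trend. Its size also depends on the axis: sorted by their untreated level, genes at 500 RPKM and over had a median ratio of -1.46, where a high untreated level is itself part of the ratio.

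**Figure D3:**
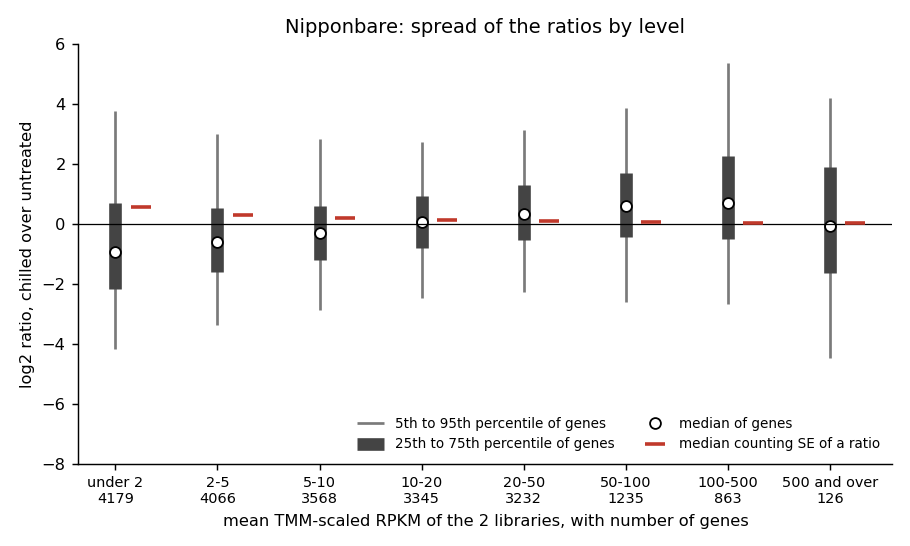
Log2 ratio (y) by mean TMM-scaled RPKM of the untreated and chilled Nipponbare libraries (x, 8 classes with their number of genes). White points are medians, dark bars the quartiles, grey lines the 5th to 95th percentiles, and red dashes the median counting standard error. The median climbs from -0.94 to 0.69 and returns to -0.08 in the top class, and in every class the quartiles span more than the counting error.

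Chilling was also accompanied by a turnover of the most abundant transcripts. The genes called higher held 12.1% of the reads on genes in the untreated library and 50.7% in the chilled one. The genes called lower went the other way, from 38.4% to 6.98%. The direction of both changes follows from the calls, which use the same reads, so these shares describe size only. Of the 100 most read genes of the untreated library, 60 were called lower and 7 higher, and 32 were still among the 100 most read after chilling. Of the 100 most read genes of the chilled library, 72 were called higher and 6 lower. Each set was chosen by 1 side of the ratio and leans that way for this reason. The 10 most read genes of the untreated library held 9.30% of its reads and 2.24% of the chilled library's. Among these 10 were the photosynthesis genes RCA, RBCS2, FBA, Lhcb2, CAB2R and CAB1R. The 10 most read genes of the chilled library held 4.76% of its reads and 4.62% of the untreated library's. The reads of the chilled library were spread slightly more evenly, with 870 genes holding 50% of them against 787 in the untreated library.

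Genes at 0 reads in 1 library were about as many in each direction. There were 214 with 0 reads untreated and 234 with 0 reads chilled. Against a floor of 3 reads for the library at 0, 77 of the 214 were at least 10-fold higher and 46 of the 234 at least 10-fold lower. LOC_Os04g47330 had 4925 reads in the chilled and 0 in the untreated library, at least 1847-fold higher. LOC_Os04g12970 had 6370 reads and 1 read, a ratio of 12.22 with an interval from 10.33 to 18.11. At the other end, LOC_Os04g02640 had 0 reads chilled and 299 untreated, at least 88.6-fold lower, and LOC_Os05g49240 had 0 and 265, at least 78.5-fold lower. The files give no name or function for these 4 identifiers.

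Named genes come from 39 lists of rice genes by function. Each name was paired with its identifier from general knowledge, and was used only where a RefSeq gene table placed it on that chromosome and did not contradict the order of the listed loci. This held for 277 of 408 listed loci, of which 241 had at least 1 RPKM in either Nipponbare library. Of these 241, 78 (32.4%) were called higher and 61 (25.3%) lower, against the background of 18.2% and 19.6%. The lists were written with earlier results of these data known, so these shares are a description of the lists and not evidence about them. Closely similar copies, such as CAB1R and CAB2R, the RAB16 genes, OsDREB1A and OsDREB1B, or TIFY11A and TIFY11C, may share reads and are uncertain as single genes.

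**Figure D4:**
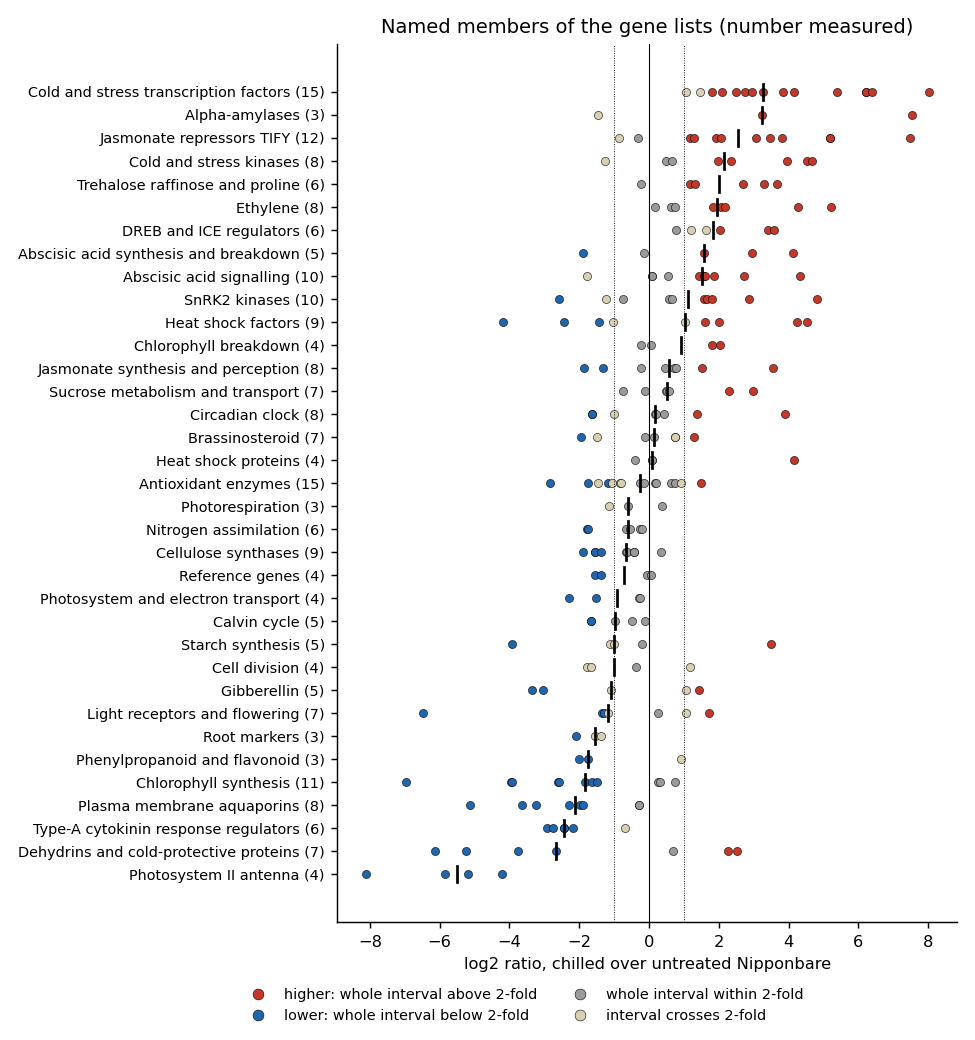
Log2 ratio, chilled over untreated Nipponbare (x), of each named gene (points) in the lists with at least 3 measured members (rows, with the number measured), ordered by the list's median (black bar). Colours give the call, and dotted lines mark 2-fold. Cold and stress transcription factors stand at the top with a median of 3.27 and the photosystem II antenna at the bottom with -5.51.

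The genes of light harvesting were the named group with the lowest ratios. The antenna proteins of photosystem II bind chlorophyll and pass excitation energy to the reaction centre. CAB1R stood at 3983 RPKM untreated and 14.3 chilled, 278-fold lower (ratio -8.12, interval -8.30 to -7.95), the lowest ratio of all named genes. CAB2R stood at 5525 and 96.7 RPKM, Lhcb3 at 3973 and 109, and Lhcb2 at 4720 and 254. All 4 named members were called lower, with a median of -5.51, and their reads went from 2.94% of all reads on genes to 0.0679%. With members of unplaced name, 7 of 7 photosystem II antenna genes and 5 of 6 photosystem I antenna genes were called lower.

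Behind the antenna the ratios were smaller. In the photosystems and electron transport, PetE, which encodes plastocyanin, stood at 2142 RPKM untreated and 433 chilled and was called lower (-2.3). PsaH, a photosystem I subunit, at 1857 and 642 (-1.53), was called lower as well. The Rieske iron-sulphur gene PetC (-0.30) and the ferredoxin-NADP reductase gene LFNR1 (-0.25) stayed within 2-fold. Among 5 named Calvin cycle genes, RCA, Rubisco activase, was called lower, at 10474 RPKM untreated and 3319 chilled (-1.66), and so was the aldolase gene FBA (-1.65). RBCS2, a Rubisco small subunit, had a ratio of -0.98, while cpFBPase had -0.50 and RPE -0.11. None of 3 named photorespiration genes was called: glycolate oxidase GLO1 had 0.38, GDCH of the glycine decarboxylase complex -0.60 and GLO3 -1.16. With members of unplaced name, 14 of 17 genes of the photosystems and electron transport were called lower, with a median of -1.65, and 7 of 14 Calvin cycle genes, with a median of -1.05. Of 9 photorespiration genes counted in this way, 1 was called higher and 2 lower. From the antenna to the carbon cycle, the medians of the named members were -5.51, -0.91 and -0.98, and that of photorespiration was -0.60, which turned to 0.11 when scaled to reference genes.

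Chlorophyll synthesis genes were mostly called lower, and some genes of chlorophyll breakdown higher. Of 11 named synthesis genes 8 were called lower and 0 higher, with a median of -1.83. PORA and PORB encode the light-dependent protochlorophyllide reductases. PORA stood at 1113 RPKM untreated and 8.86 chilled (-6.97), and PORB at 267 and 17.2 (-3.95). CHLP, geranylgeranyl reductase, had -3.93 and the divinyl reductase gene DVR -2.60. The 3 genes within 2-fold included the chlorophyll synthase gene CHLG (0.25). Of 4 breakdown genes, 2 were called higher: NYC1, chlorophyll b reductase, at 63.8 RPKM untreated and 261 chilled (2.03), and the stay-green gene SGR at 19.3 and 67.3 (1.80). NOL (0.05) and RCCR1 (-0.24) stayed within 2-fold. When members of unplaced name were added, 2 of 6 breakdown genes were called higher, and the median went from 0.92 to 0.41. Both GLK factors, which activate photosynthesis genes, were called, in opposite directions: GLK1 stood at 185 and 72.5 RPKM (-1.35) and GLK2 at 62.6 and 206 (1.72).

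Of the regulators at the start of cold signalling, 3 of 6 measured members were called higher in the chilled library and 0 lower, with a median of 1.82. OsDREB1A and OsDREB1B encode factors that bind the cold-response element of promoters. OsDREB1A had 16 reads untreated and 157 chilled (0.950 and 10.5 RPKM, ratio 3.42, interval 2.72 to 4.31), and OsDREB1B had 7 and 79 (0.501 and 6.36 RPKM, ratio 3.58, interval 2.56 to 5.03). OsDREB2A, at 4.18 and 17.0 RPKM, was called higher too (2.02). OsDREB1C (1.63) and OsDREB1G (1.2) were not decided at this depth, and OsDREB2B (0.77) stayed within 2-fold. With 1 member of unplaced name the counts were 3 of 7 higher and 1 lower. A further 3 named members were under 1 RPKM in both libraries on the values as deposited, which the choice of genes uses, and OsDREB1I among them stood at 1.05 RPKM chilled after TMM scaling.

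The other transcription factors of cold and stress had the highest median, 3.27, of the lists with at least 3 measured members. Of 15 genes 13 were called higher and 0 lower. OsNAC4 went from 17 reads to 4077, or from 0.876 to 236 RPKM, a ratio of 8.03 (interval 7.40 to 8.86) and the highest of the named genes. NAC factors are plant-specific regulators of stress and senescence. OsNAC3 stood at 1.98 RPKM untreated and 168 chilled (6.39). Of the WRKY factors, known from defence and stress, OsWRKY24 stood at 0.975 and 74.6 RPKM (6.23) and OsWRKY71 at 4.77 and 355 (6.21). OsMYB4, whose overexpression has been reported to raise chilling tolerance, stood at 2.83 and 121 RPKM (5.40). The genes not called were the stress-associated zinc finger gene OsSAP8 (1.06), whose interval from 0.99 to 1.12 spans 2-fold, and OsMYB2 (1.47), chosen after its values were seen. With members of unplaced name, 24 of 28 were called higher and 1 lower.

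**Figure D5:**
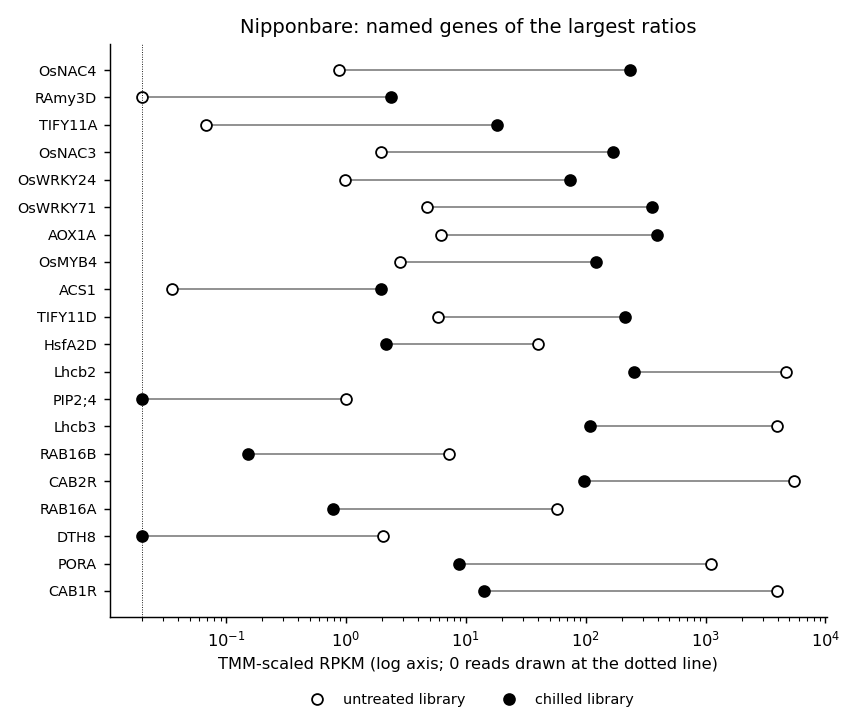
Level of the 10 named genes with the highest and the 10 with the lowest ratios (rows) in untreated (open points) and chilled (filled points) Nipponbare, in TMM-scaled RPKM on a log axis. The genes at the top start between 0 and 6.20 RPKM, while the antenna genes near the bottom start between 3973 and 5525 RPKM.

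Kinases followed with smaller ratios. Of 8 measured cold and stress kinases and sensors, 5 were called higher and 0 lower, with a median of 2.16. CPK13, a calcium-dependent protein kinase, stood at 26.5 RPKM untreated and 676 chilled (4.67). The MAP kinase gene MAPK5 (4.54), the calcineurin B-like interacting kinase gene CIPK15 (3.94) and the MAP kinase kinase gene MKK6 (2.34) were called higher. COLD1, reported as a regulator of G-protein signalling in japonica chilling tolerance, stood at 13.0 and 18.4 RPKM and stayed within 2-fold (0.50). Of the 10 SnRK2 kinases, which act in osmotic stress and abscisic acid signalling, 5 were called higher and 1 lower. SAPK9 stood at 1.31 and 37.1 RPKM (4.81), SAPK2 at 36.5 and 266 (2.87) and SAPK10 at 4.44 and 15.6 (1.81). SAPK7, at 7.31 and 1.2 RPKM, was the member called lower (-2.59), and SAPK5 had 0.57.

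The hormone lists differed from each other. Jasmonate signalling is held back by TIFY proteins, whose genes are themselves switched on by jasmonate. Of 12 TIFY genes 10 were called higher and 0 lower, with a median of 2.55. TIFY11A had 1 read untreated and 239 chilled (7.49, interval 5.58 to 13.38), and TIFY11D stood at 5.83 and 213 RPKM (5.19). TIFY11E had a ratio of 5.18, TIFY11C of 3.80 and TIFY3 of -0.31. Jasmonate synthesis and perception was mixed, with 2 of 8 called higher and 2 lower. The allene oxide synthase genes AOS2 (3.56) and AOS1 (1.51) were higher, and the allene oxide cyclase gene AOC (-1.87) and the receptor gene COI1A (-1.33) were lower. JAR1, which conjugates jasmonate to isoleucine, had -0.23.

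For abscisic acid, 3 of 5 genes of synthesis and breakdown were called higher and 1 lower. NCED3, of the committed step of synthesis, stood at 2.21 RPKM untreated and 17.2 chilled (2.96). The other listed genes of that step are of unplaced name. The hydroxylase genes ABA8ox1 (4.12) and ABA8ox3 (1.57), which break the hormone down, were higher as well, and ABA8ox2 had -0.13. ZEP, zeaxanthin epoxidase, stood at 185 and 50.1 RPKM (-1.88). With members of unplaced name, 4 of 8 were called higher and 2 lower, and the median went from 1.57 to 0.90. All 8 summed to 750 RPKM untreated and 158 chilled, the 5 named to 207 and 133. In signalling, 6 of 10 measured genes were called higher and 0 lower, with a median of 1.51. Among the protein phosphatases that restrain the pathway, PP2C68 stood at 7.98 and 161 RPKM (4.33), PP2C30 at 10.1 and 66.1 (2.71) and PP2C50 at 23.1 and 84.3 (1.86). PP2C08 (-1.78) was not decided on 44 reads untreated and 11 chilled, the fewest that fit its values. The bZIP factor gene TRAB1 had 0.08.

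Of 8 ethylene genes 5 were called higher and 0 lower, with a median of 1.94. The synthase genes ACS1 and ACS2, of the limiting step of ethylene synthesis, had 1 and 3 reads untreated and 49 and 60 chilled. Their ratios were 5.21 (interval 3.24 to 11.12) and 4.28 (2.88 to 6.81). ERS1, a receptor gene, stood at 26.4 and 119 RPKM (2.17), the oxidase gene ACO1 had 2.05, and the signalling gene EIN2 had 0.18. The type-A response regulators, which cytokinin induces and which damp its signal, stood on the other side: 5 of 6 were called lower and 0 higher, with a median of -2.44. RR9 stood at 16.5 and 2.15 RPKM (-2.92), RR10 at 18.3 and 2.66 (-2.76), RR2 at 63.4 and 11.7 (-2.44) and RR4 at 30.4 and 5.57 (-2.44). RR6 (-0.70) was not decided.

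Growth hormones showed no common direction. Of 5 named gibberellin genes the synthesis genes GA20ox2 (98 reads untreated and 8 chilled, -3.36) and KAO (97 and 10, -3.04) were called lower. The receptor gene GID1 was called higher, at 29.3 and 79.1 RPKM (1.43), and KO2 (-1.08) and the DELLA repressor gene SLR1 (1.05) were not decided. The list's median was -1.08 and turned to 1.05 over 9 members when those of unplaced name were added. Of 7 brassinosteroid genes 1 was called higher, BRD1 (1.29), and 1 lower, D11 (-1.96), both of synthesis. DWF4 (-1.50) and the factor gene BZR1 (0.73) were not decided, and the receptor gene BRI1 had -0.11. The list's median of 0.14 turned to -0.12 with the values as deposited.

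Protective proteins were called in both directions. Dehydrins are hydrophilic proteins that accumulate when cells lose water. Of 7 measured members of the list, 2 were called higher and 4 lower, with a median of -2.66. RAB16A stood at 57.9 RPKM untreated and 0.786 chilled (-6.14), RAB16B at 7.20 and 0.153 (-5.24), OsLEA3-1 at 56.0 and 4.13 (-3.75) and RAB16C at 4.68 and 0.696 (-2.66). The members called higher, chosen after their values were seen, were the dehydrin gene LIP9, at 88.8 and 425 RPKM (2.26), and the small membrane protein gene OsLti6b, at 219 and 1246 (2.51). OsLti6a stayed within 2-fold (0.68). RAB16 and LEA3 genes are known as targets of abscisic acid, whose signalling list had a median of 1.51.

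Enzymes of protective solutes were mostly higher. Of 6 measured genes for trehalose, raffinose, inositol and proline, 5 were called higher and 0 lower, with a median of 2.0. RINO1, inositol phosphate synthase at the head of the raffinose route, stood at 112 RPKM untreated and 1409 chilled (3.66). The trehalose phosphatase genes OsTPP2 (1.01 and 9.99 RPKM, 3.28) and OsTPP1 (0.673 and 4.41 RPKM, 2.68) were higher. The proline synthesis gene P5CS1 had 1.32 and was called, while P5CS2 had -0.24. Adding members of unplaced name gave 6 of 11 called higher and a median of 1.18.

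Some antioxidant enzymes were called, in both directions. Of 15 genes 1 was called higher, 3 lower, and 6 stayed within 2-fold. With members of unplaced name, 1 of 19 was called higher and 5 lower. The cytosolic ascorbate peroxidase genes APX1 and APX2 were called in opposite directions, APX1 at 109 RPKM untreated and 306 chilled (1.49) and APX2 at 260 and 36.7 (-2.83). SODCC1, a copper-zinc superoxide dismutase, had -1.75, APX5 -1.46 without a call, and the catalase gene CATB -0.15. The list's median of -0.27 turned to 0.44 when scaled to reference genes. By contrast AOX1A, the mitochondrial alternative oxidase, stood at 6.20 and 397 RPKM (5.99, interval 5.75 to 6.26). With members of unplaced name, 4 of 5 alternative and plastid terminal oxidases were called higher.

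Heat shock factors went both ways, with 4 of 9 called higher and 3 lower. HsfC1B stood at 0.672 RPKM untreated and 16.2 chilled (4.53) and HsfC2A at 2.93 and 56.1 (4.25), while HsfA2D stood at 40.3 and 2.18 (-4.19) and HsfA2C at 8.20 and 1.49 (-2.43). HsfC1A (-1.02) was not decided. HsfA2D is uncertain, because its RefSeq entry lists names of a second gene. The 2 members of class C named as higher and the 2 of class A2 named as lower were chosen by size, and HsfA2B of class A2 was itself called higher (2.0). Of 4 heat shock protein genes the disaggregase gene HSP101 was called higher, with 18 reads untreated and 289 chilled (4.14), and HSP90-2 (-0.39), HSP17.4 (0.09) and BIP1 (0.09) stayed within 2-fold. Their median of 0.09 turned to -0.17 with the values as deposited. Of the fatty acid desaturases, which keep membranes fluid, SSI2 was the only named member (-0.38), and 0 of 6 members were called in either direction when those of unplaced name were added.

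Genes of water transport, cell walls and pigments were called lower in part. Of 8 measured plasma membrane aquaporins 6 were called lower and 0 higher, with a median of -2.14. PIP1;1 stood at 577 RPKM untreated and 60.8 chilled (-3.24), PIP1;3 at 60.4 and 4.80 (-3.65) and PIP1;2 at 395 and 79.9 (-2.3). PIP2;4 had 19 reads untreated and 0 chilled, at least 5.63-fold lower, and PIP2;7 stayed within 2-fold (-0.28). Of 9 cellulose synthases 4 were called lower and 0 higher. They were CESA4 (-1.38) and CESA7 (-1.88), known from secondary walls, and CESA3 (-1.56) and CESA8 (-1.56), known from primary walls. CESA2 had 0.33, and the list's median of -0.65 turned to 0.07 when scaled to reference genes. The flavonoid genes CHS1, chalcone synthase, at 369 and 111 RPKM (-1.74), and CHI, chalcone isomerase, at 308 and 76.0 (-2.02), were lower. The phenylalanine ammonia-lyase gene PAL4 (0.93) was not decided. Adding members of unplaced name, 5 of 9 phenylpropanoid and flavonoid genes were called lower and 1 higher.

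Starch and sugar genes were mixed. Among starch synthesis genes the debranching enzyme gene ISA1 was called higher, at 2.38 RPKM untreated and 26.9 chilled (3.49). GBSSI, for amylose, was called lower, with 60 reads and 3 (-3.94, interval -6.47 to -2.54). SSI (-1.11) and BEI (-0.99) were not decided, and AGPS2 had -0.21. With members of unplaced name, 1 of 8 starch synthesis genes was called higher and 3 lower, with a median of -1.05. All 8 summed to 748 RPKM untreated and 204 chilled, the 5 named to 194 and 160. The amylase gene RAmy3D had 0 reads untreated and 82 chilled, at least 30.8-fold higher, and RAmy3B had 5 and 46 (3.25), while RAmy2A (-1.47) was not decided and 3 further members had 0 reads in both libraries. Of 7 sucrose genes 2 were called higher and 0 lower: the transporter gene SWEET11, at 0.760 and 6.19 RPKM (2.99), and the sucrose synthase gene SUS4, at 8.43 and 41.1 (2.28). SUS2 (-0.74), SUT1 (0.56) and SUS1 (-0.12) stayed within 2-fold. In nitrogen assimilation the cytosolic glutamine synthetase genes GS1;1 (-1.75) and GS1;2 (-1.77) were called lower, and plastid GS2 (-0.67), AMT1;1 (-0.55) and Fd-GOGAT (-0.21) were not. The median of the nitrogen list, -0.61, turned to 0.10 when scaled to reference genes.

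Clock genes are read with the unknown harvest hour, whose part in these ratios was not tested. OsLUX, of the evening complex, stood at 1.34 RPKM untreated and 20.6 chilled (3.91) and OsPRR1, an evening gene, at 15.6 and 40.6 (1.38). The morning gene OsLHY, at 560 and 179 RPKM (-1.64), and OsPRR73, at 184 and 59.2 (-1.63), were called lower. OsELF3 had 0.18, and the list's median of 0.18 turned to -0.08 with the values as deposited. Of the light and flowering list, DTH8, a flowering repressor, had 50 reads untreated and 0 chilled, at least 14.8-fold lower. The phytochrome gene PHYA was called lower (-1.28) and PHYC had 0.25. Setting the genes at 0 reads to their floor left the medians of this list (-1.17), of the aquaporins (-2.14) and of the amylases (3.25) as they were.

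Markers of other tissue were low in both libraries. The 5 root markers summed to 9.49 RPKM untreated and 2.67 chilled, with LSI2 at 0 in both and LSI1, a silicon channel gene, called lower (107 reads and 22, -2.09). HKT2;1 (-1.56) and NRAMP5 (-1.37) were not decided. The 3 shoot meristem markers summed to 0.184 and 0.130 RPKM, with OSH1 at 0 in the chilled library. The 6 genes of dividing cells summed to 21.2 and 15.5 RPKM, and none of 4 measured was called: PCNA (-1.77), CDKB1;1 (-1.65) and CDKB2;1 (1.16) were not decided and CDKA;1 had -0.37. The green leaf markers were abundant untreated, the Calvin cycle list at 28231 RPKM in sum, and stood at 11391 chilled. In pooled tissue, fewer cells of a type and less RNA per cell cannot be told apart.

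The spread was similar over the chromosomes and narrower for genes of longer recovered length. Over the 12 chromosomes, as read from the identifiers, the SD lay between 1.95 and 2.22. The median ratio was highest on chromosome 3 (-0.01) and lowest on chromosome 11 (-0.44), where 15.2% of 1078 genes were called higher and 25.3% lower. Length was recovered as the smallest that fits the values, so a gene may stand in a class below its true length. How many genes this moves was not tested. Among genes with at least 100 reads summed over both libraries, the median was 0.32 for 246 genes under 500 bases. It was between -0.21 and 0.02 in the longer classes. The SD went down with each class from 2.42 to 1.62 in the class of 3000 bases and over. The share called higher was 30.1% and the share called lower 11.0% under 500 bases, against 18.8% and 18.1% in the longest class. Neighbouring loci were alike somewhat more often than the background. Where a gene was called higher, the next locus was called higher in 28.8% of 2131 cases, against 19.2% of all 11384 next loci. For lower genes it was 26.1% against 18.1%. Tandem copies and reads shared by overlapping genes are part of these counts, and the labels do not say whether counting used strand. The longest run of adjacent higher loci had 6 members on chromosome 2, from LOC_Os02g37280 to LOC_Os02g37330, with ratios from 2.44 to 5.80.

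Beside the indica cultivar, measured in its own pair of libraries with none shared, the size of the response was alike. Over the 18187 genes that met the level rule in both cultivars, the SD was 1.98 in Nipponbare and 1.99 in the indica cultivar, and the quartiles spanned 2.14 in each. The difference of the ratios had an SD of 0.98 and a median of -0.07. Across genes, which are not replicates, Pearson's r was 0.88, and 0.92 over the 11660 genes averaging 100 reads or more in each cultivar, while all 4 libraries share the gene models and the processing. Of the genes called higher in Nipponbare 76.0% were called higher in the indica cultivar, and of those called lower 60.8% were called lower. Over all 20614 genes, 18.6% were called higher and 15.9% lower in the indica cultivar. The median ratio of the genes called lower was -2.38 in Nipponbare and -1.89 in the indica cultivar. These genes were chosen by their ratios in Nipponbare, so the smaller median in the indica cultivar is given as a description only.

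Among the 241 named genes the difference, Nipponbare minus the indica cultivar, had its whole interval above 1 log2 unit in 21 (8.71%) and below -1 in 13 (5.39%), with no test. Over all 20614 genes these shares were 2.21% and 4.16%. The examples that follow were chosen after their values were seen. RINO1 had 3.66 in Nipponbare and 1.49 in the indica cultivar, a difference of 2.16 (interval 2.09 to 2.23), with 1409 RPKM in chilled Nipponbare against 366 in the chilled indica cultivar. ISA1 had 3.49 and 1.19, a difference of 2.3 (1.91 to 2.69), and NCED3 had 2.96 and 0.94, a difference of 2.02 (1.6 to 2.44). In the other direction OsWRKY76 had 2.1 and 5.59, a difference of -3.48 (-4.09 to -2.87), and BZR1 had 0.73 and 3.35, a difference of -2.62 (-2.97 to -2.27). The labels do not name the genome to which the indica cultivar was mapped, and its part in these differences was not tested.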

How the data were processed

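Each library's deposited table gives 1 value in RPKM for each of 55985 gene identifiers. Per the submitters' processing notes, Bowtie2 2.0.6, TopHat2 2.0.9 and HTSeq 0.5.4p3 were used, with no role or order stated. The genome build, the annotation, the filters and the use of strand are not stated there or in the labels. Per the labels' protocols, messenger RNA was enriched with oligo(dT) beads, fragmented, copied from random primers and sequenced on an Illumina HiSeq 2000. PCR copies are not independent molecules, so intervals and floors cover counting error only.

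Reads were recovered from the values. For all 36941 genes above 0, 1 whole gene length and 1 whole total per library turned each RPKM into whole reads within its rounding. With totals shifted by 1 or 2% only 4 and 14 of 300 genes could be solved. On simulated data the procedure returned 4 of 4 totals. Reads and length of a gene are known up to a common whole factor, and the smallest length that fits was taken. Where that factor is above 1, the true reads and length are larger and the true interval is narrower than given. TMM factors (trims 0.3 and 0.05) were computed over all 4 libraries in Python 3.11.15. Ratios carry exact conditional binomial (Clopper-Pearson) 95% intervals, differences between cultivars Wald 95% intervals. A library at 0 was set to 3 reads for a bound. No test across replicates was possible.

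Names came from the RefSeq gene table of assembly GCF_034140825.1 ASM3414082v1, which holds 0 of the files' identifiers. Each name was paired with its locus from general knowledge and used where the table did not contradict chromosome and gene order. Of 408 loci 406 are in the files, 122 names were not in the table, 5 lay on another chromosome, 1 was out of order and 3 shared an entry or had several. For 8 names a synonym was added after the table was seen. No coordinates are given, since the build is not named. The genes, lists and alternatives were chosen with earlier results of these data known. Named are the 10 highest and 10 lowest ratios over all lists, in each list up to 4 members of largest and 1 of smallest ratio, and 2 identifiers at each end. Other genes are said to be chosen after their values were seen. Alternatives varied the scaling, the filter, the pseudocount and the definition of a call.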

Additional observations from a re-analysis of the deposited data

Results flagged for a closer look

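Of the 241 measured genes of the lists, 16 had counting intervals on opposite sides of 0 in the 2 cultivars. Under TMM scaling they thus stood higher after chilling in one and lower in the other. Ratios near 0 can change side with the scaling, which shifts all Nipponbare ratios by -0.26 to 0.71. The same count was not made over all genes, so 16 is not read as many or few. With 1 library per group the difference was not tested. Of the 164 genes that the naming rule selects from these lists, 8 are among the 16. The differences for these 8 are log2 ratios in Nipponbare minus the indica cultivar. The difference was 0.50 for GLO1 (0.38 and -0.12), -1.72 for GLO3 (-1.16 and 0.56) and 1.31 for SAPK5 (0.57 and -0.74). It was 1.3 for OsLti6a (0.68 and -0.63), -0.85 for CATB (-0.15 and 0.69) and -1.47 for HsfC1A (-1.02 and 0.44). For SUS1 it was -0.33 (-0.12 and 0.21) and for SUT1 1.05 (0.56 and -0.50). None of the 8 was called beyond 2-fold in Nipponbare. Of the others SAPK1, chosen after its values were seen, was called higher in Nipponbare (1.66) and had -0.21 in the indica cultivar. Over all genes, by the stricter rule of calls beyond 2-fold, 7 were called higher in Nipponbare and lower in the indica cultivar, and 12 the reverse.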

How the results depend on the processing

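The values above rest on TMM scaling, at least 1 RPKM in either Nipponbare library and the whole interval beyond 2-fold. The median of all log2 ratios (-0.17) was -0.43 with values as deposited, -0.31 with the upper quartile, -0.07 with TMM over the Nipponbare pair, -0.02 with the median of ratios and 0.54 with reference genes. It was -0.22 with no filter, -0.03 with at least 5 RPKM in either library, -0.01 with at least 1 RPKM in both and -0.14 on log2(RPKM + 1). The SD (2.05) was 1.97 with no filter, 1.99 with at least 5 RPKM, 1.53 with at least 1 RPKM in both, 1.46 on log2(RPKM + 1) and 1.94 on log2(RPKM + 0.1). Of the counts (3755 higher, 4040 lower), reference genes gave 6332 and 2009, and at least 1 RPKM in both libraries 2317 lower. That filter removes genes off in 1 library by its construction. Ratios beyond 2-fold whatever their interval gave 6330 lower on reads and 6247 on log2(RPKM + 0.1), and whole intervals beyond 4-fold 1725 and 1451. In added alternatives the SD of the difference between cultivars (0.98) was 0.71 on log2(RPKM + 1) and 0.92 on log2(RPKM + 0.1).

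Of 37 list medians, those that changed sign under a setting did so as follows. When scaled to reference genes, photorespiration had 0.11, antioxidant enzymes 0.44, fatty acid desaturases 0.33, cellulose synthases 0.07 and nitrogen assimilation 0.10. With values as deposited the clock had -0.08, brassinosteroid -0.12 and heat shock proteins -0.17, the last also -0.05 with the upper quartile. With members of unplaced name added, gibberellin had 1.05 and fatty acid desaturases 0.40. No named call could change sign under the 7 settings. A call lies beyond 1 log2 unit, the scalings shift ratios by at most 0.71, and an added constant keeps their direction. Over these settings 448 of 1176 named values moved beyond their counting interval, with reference genes 136 of 168. With values as deposited 4 of 168 named values lost their call, with reference genes 21 and with each other scaling 1. With 1 library per group none could be left out. No paired analysis was possible because the Nipponbare groups share fewer than 2 replicate numbers. A fit of chilling over both cultivars, with cultivar as a block, was not run, since it would test chilling over both and not within Nipponbare.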
